A study of Drosophila melanogaster with 3 samples.

Results

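Of 30000 peaks ranked from pooled chromatin immunoprecipitation libraries of a lilli-eGFP fusion protein in Drosophila embryos, 696 had their summit at the promoter of a noncoding RNA gene and at no promoter of a protein-coding gene. These ncRNA-only promoter peaks were chosen by position alone. The summit lay within 500 bp of a transcription start site (TSS) of a gene that Ensembl classes as ncRNA and over 500 bp from every protein-coding TSS, and genes named mir- did not count. Of the 696, 144 also stood in the list of 6970 peaks that the authors kept for reproducibility, here called the optimal list, which holds the 6970 pooled peaks with the highest signal value. The class ncRNA in the annotation covers long noncoding RNAs (lncRNA), antisense RNAs (asRNA), small nucleolar RNA (snoRNA) hosts and some structural RNAs. It also holds 485 entries of about 22 bp for mature microRNAs, whose names do not begin with mir-, so 59 of the 696 peaks and 10 of the 144 rest on such entries alone. Without them 637 peaks, 134 of them optimal, meet the rule.

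Lilliputian (lilli), the only AF4/FMR2 protein of the fly, is a scaffold subunit of the super elongation complex, which brings the kinase P-TEFb to RNA polymerase II paused near a promoter and lets it move on into the gene. Most long noncoding RNAs are made by the same polymerase, and many microRNAs and snoRNAs are cut out of longer noncoding transcripts, so the promoters of these host genes are where their expression is set. Fly noncoding RNAs with known roles include roX1 and roX2, which coat the male X chromosome in dosage compensation. Others are Hsromega, whose transcripts build nuclear speckles, and flamenco (flam), a source of small RNAs that silence transposons.

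The samples were 3 biological replicates of one group, whole embryos aged 0 to 24 h, males and females pooled. The embryos came from a transgenic line that stably carries lilli with eGFP at its C terminus, and the tag was precipitated with an antibody to GFP from chromatin sheared to 200 to 800 bp. Signal from few cells or a short stage is diluted in such a mixture, and the labels do not say whether native lilli is also present. Each replicate has its own list of 30000 ranked peaks. The strongest peaks of a replicate are here its 6970 with the highest signal value, and a peak was called found in a replicate where a summit lay within 100 bp. The deposited replicate and pooled lists were made against a control alignment. No control library was analysed here, so signal common to all open chromatin cannot be told apart from lilli. The lists hold no reads, which leaves the depth unknown.

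The sequence at the summit is shown for the strongest ncRNA-only peaks and for noncoding RNAs with known roles, because the results below turn on these peaks and on their base composition. Each is the summit base with 50 bases on either side, read 5′ to 3′ on the strand of the RNA gene from the RefSeq copy of the dm6 genome, and capitals mark runs of 6 or more A or T bases. The first 4 are among the 5 ncRNA-only peaks with the highest signal, all at lncRNA genes, CR44619 at chrX:12751348-12751448 (plus strand), CR31044 at chr3R:29214398-29214498 (plus strand), CR44676 at chr3L:19560761-19560861 (minus strand) and CR43626 at chr3L:3250223-3250323 (plus strand). The others are both optimal peaks of Hsromega at chr3R:21296348-21296448 and chr3R:21296550-21296650 (plus strand), flam at chrX:21631648-21631748 (plus strand) and roX1 at chrX:3862455-3862555 (minus strand).
CR44619: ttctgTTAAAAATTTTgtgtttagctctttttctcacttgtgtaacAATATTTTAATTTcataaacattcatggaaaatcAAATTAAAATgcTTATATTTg
CR31044: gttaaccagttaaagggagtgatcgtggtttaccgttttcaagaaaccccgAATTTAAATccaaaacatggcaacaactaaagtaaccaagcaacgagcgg
CR44676: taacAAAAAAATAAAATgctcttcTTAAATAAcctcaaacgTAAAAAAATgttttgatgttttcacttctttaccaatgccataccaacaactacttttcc
CR43626: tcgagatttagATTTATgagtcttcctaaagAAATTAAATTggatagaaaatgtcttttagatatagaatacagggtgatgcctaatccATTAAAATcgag
Hsromega upstream: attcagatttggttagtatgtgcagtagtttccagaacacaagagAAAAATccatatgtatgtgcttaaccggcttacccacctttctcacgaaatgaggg
Hsromega start: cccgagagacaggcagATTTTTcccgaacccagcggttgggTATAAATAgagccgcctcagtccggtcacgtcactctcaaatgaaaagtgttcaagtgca
flam: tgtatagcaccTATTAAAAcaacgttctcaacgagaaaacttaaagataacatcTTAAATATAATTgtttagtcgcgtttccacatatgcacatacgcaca
roX1: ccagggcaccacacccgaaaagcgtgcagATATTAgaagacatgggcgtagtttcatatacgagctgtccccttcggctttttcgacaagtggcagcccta
The runs took up 41.6% of the window at CR44619, 29.7% at CR44676 and 23.8% at CR43626, but 8.91% at CR31044 and 5.94% at roX1. At the Hsromega start the capitals include a TATAAA box that begins at base 42, and the annotated TSS lies 21 bp downstream of the summit, which is base 51.

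Ranked by signal, lilli peaks at ncRNA-only promoters lay between those away from all promoters and those at protein-coding promoters. Of the 696, 20.7% were in the optimal list (144 peaks, 95% Wilson interval 17.8 to 23.9%), against 15.7% of the 19722 peaks over 500 bp from every TSS, 39.4% of the 9357 peaks at protein-coding promoters and 23.2% of all 30000. The share thus lay near that of the whole list. Within the optimal list the 144 peaks had a lowest signal of 112, a median of 200.6 and a highest of 2582, and their median rank was 3520.5. The medians of the signal were 184.2 for optimal peaks away from TSSs and 220.8 at protein-coding promoters. The signal is the authors' value per peak, and intervals over peaks cover counting error only.

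Peaks at ncRNA-only promoters also had the smaller share in each replicate's own list. These lists held 690, 698 and 698 ncRNA-only peaks in replicates 1, 2 and 3, and 148, 145 and 154 of them were among the strongest peaks (149 ± 4.58, SD, n = 3). The share among the strongest was 21.4 ± 0.645% at ncRNA-only promoters and 39.6 ± 0.741% at protein-coding promoters (SD, n = 3), a difference of -18.2 ± 0.918 percentage points. No replicate's ncRNA-only share reached its protein-coding share, which was 38.8% at the lowest. The exact sign-flip permutation test over 3 replicates (two-sided) gave p = 0.25, the smallest it can give, so this comparison and those below over replicates cannot pass a threshold of 0.05.

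Optimal ncRNA-only peaks recurred in all replicates in a share whose interval takes in that of all optimal peaks. Of the 144 optimal peaks, 84 (58.3%, interval 50.2 to 66.1%) were among the strongest of all 3 replicates, against 63.5% of all 6970 optimal peaks. With summits within 50 bp instead of 100 bp, 44.44% of the 144 recurred in all replicates. A further 41 were among the strongest of 2 replicates, 18 of 1 replicate and 1, at lncRNA:CR44717, of none. Of the 552 lower-ranked ncRNA-only peaks, 7 were among the strongest of 2 replicates and 0 of all 3, and a count of 0 allows a share of up to 0.543%. The pooled list was made from the same 3 replicates, so this contrast between optimal and lower-ranked peaks is partly built in.

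Summits at ncRNA-only promoters were spread over the whole window, whereas those at protein-coding promoters gathered just upstream of the TSS. Of the 144 optimal peaks, 83 (57.6%) lay upstream of the nearest ncRNA TSS and 29 (20.1%) within 100 bp of it, against 78.9% and 50.7% of 3691 optimal peaks at protein-coding promoters. The median distance regardless of side was 216 bp at ncRNA-only promoters and 99 bp at protein-coding promoters. The summits most often fell over 100 and up to 250 bp upstream (40 peaks, 27.8%), and 34 (23.6%) lay over 250 and up to 500 bp downstream, where 3.12% of the protein-coding set lay. Some ncRNA genes are shorter than 500 bp, so a downstream summit can lie past the end of the gene. Examples are CR44676 (summit 379 bp downstream, gene of 371 bp) and CR43411 (488 bp downstream, gene of 364 bp). Lower-ranked peaks showed less of a side in both sets, with 48.7% (interval 44.6 to 52.9%) upstream at ncRNA-only promoters and 52.5% at protein-coding promoters.

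**Figure D1:**
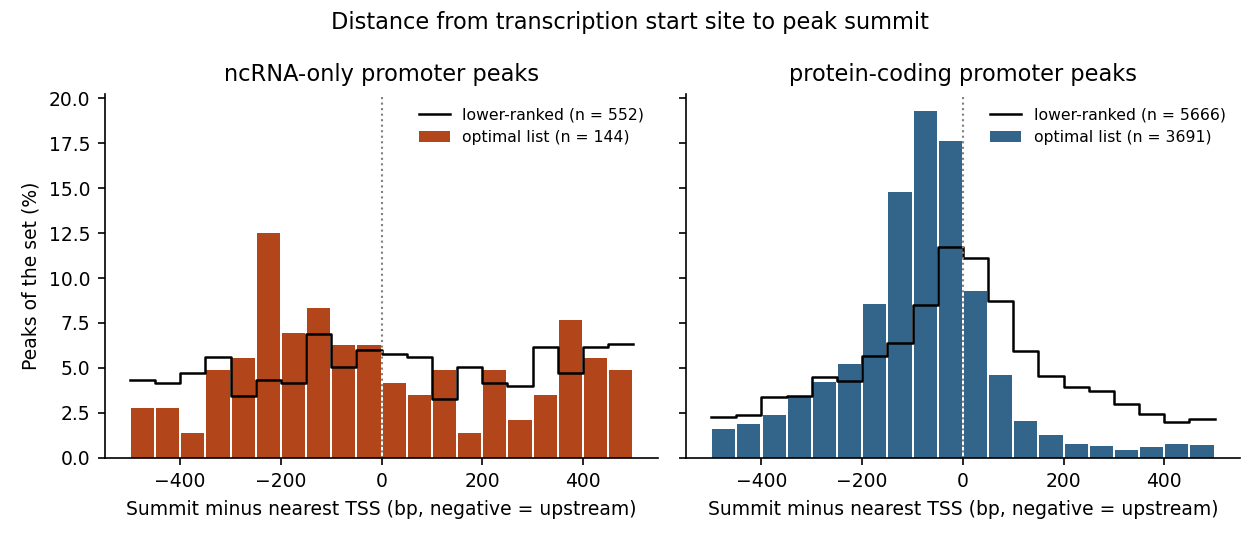
Distance of the summit from the nearest TSS in bins of 50 bp, as a percent of each set, with ncRNA-only promoters on the left and protein-coding promoters on the right; bars are optimal peaks and black lines lower-ranked peaks. The 144 ncRNA-only bars stay at or below 12.5% in every bin, while the 3691 protein-coding bars rise to a single crest just upstream of the TSS.

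Replicate lists gave the same picture. Upstream shares of the strongest peaks were 53.4%, 56.6% and 57.8% in replicates 1, 2 and 3 at ncRNA-only promoters, against 75.9%, 78.8% and 78.0% at protein-coding promoters. Shares within 100 bp of the TSS were 20.6 ± 1.41% and 50.2 ± 1.40% (SD, n = 3 each), a difference of -29.7 ± 1.79 points, with p = 0.25 for both measures in the exact permutation test. The groups did not overlap in either measure. How precisely the start sites of these RNAs are annotated was not tested.

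**Figure D2:**
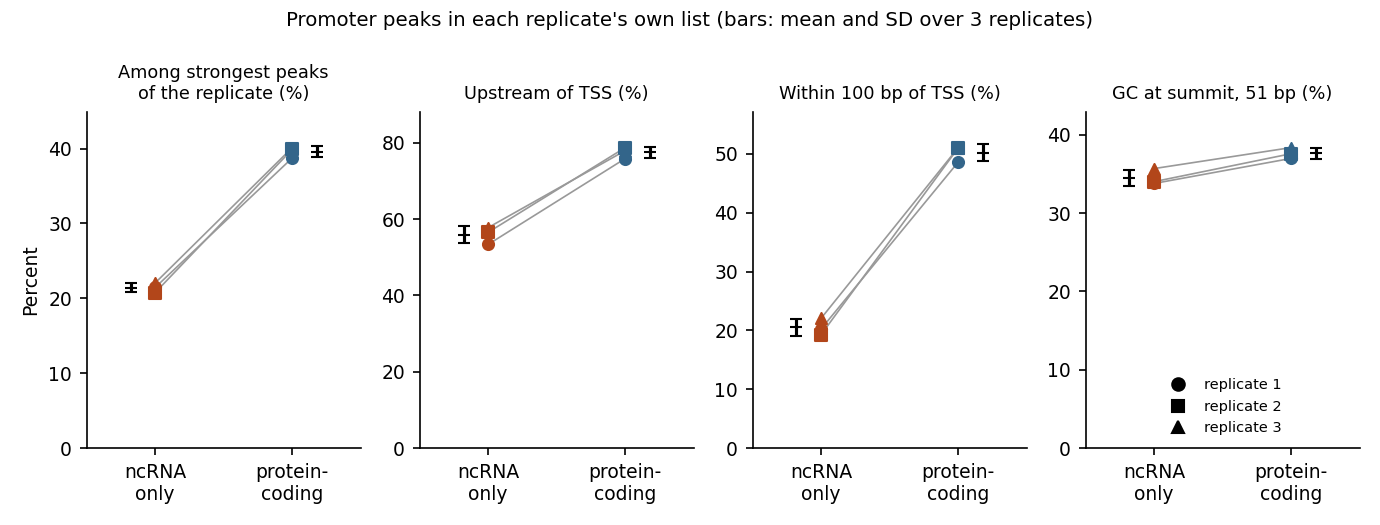
Values of ncRNA-only promoter peaks (left in each panel) and protein-coding promoter peaks (right) in the 3 replicate lists, in percent; grey lines join the values of a replicate, and black bars give the mean and SD. In each of the 4 panels every ncRNA-only value lies below every protein-coding value, with 21.4% against 39.6% among the strongest and 20.6% against 50.2% within 100 bp of the TSS.

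The strongest ncRNA-only peak lay 469 bp upstream of lncRNA:CR44619 on the X chromosome and ranked 21 of 30000 in the pooled list. It ranked 21, 20 and 18 in replicates 1, 2 and 3, with signal values of 781, 965 and 902 in lists that are not on a common scale. Its summit sits inside the body of another noncoding gene, lncRNA:Vinr, an RNA linked to antimicrobial immunity, whose own start site had a separate peak at rank 12481. The second peak, 114 bp upstream of lncRNA:CR31044 on 3R, ranked 27 in the pooled list and 28, 28 and 32 in the replicates, with signals of 724, 886 and 709. CR31044 contains the hairpins of mir-279 and mir-996, and mir-279 is known for blocking the formation of carbon dioxide-sensing neurons. A gap followed, since the next peak, at CR44676, ranked 219 in the pooled list and 207, 207 and 286 in the replicates.

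All of the 20 strongest ncRNA-only peaks were among the strongest of every replicate, which is partly built in because the pooled signal comes from the same replicates. Their pooled ranks ran from 21 to 689, and 14 lay outside protein-coding genes and 6 in introns. CR44339 (ranks 215, 184 and 669 in replicates 1, 2 and 3) lay 4195 bp from the start of Psc, a Polycomb group gene, and CR45668 (ranks 384, 242 and 393) lay 654 bp from that of Act5C, a cytoplasmic actin gene. Those in introns belonged to genes of several functions. CR44867 (ranks 427, 282 and 229) is in an intron of the axon guidance gene beat-Ib and CR46036 (ranks 228, 353 and 958) in one of osa, a subunit of the Brahma chromatin remodelling complex. The antisense RNA CR44429 (ranks 435, 465 and 1215) lies in gce, a juvenile hormone receptor gene, and CR43399 (ranks 857, 497 and 692) in ena, a regulator of actin assembly. CR46102 (ranks 988, 530 and 543) lies in LpR2, a lipophorin receptor gene, and asRNA:CR45908 (ranks 431, 438 and 370) in CG1943. Ranks lay far apart between replicates at CR44429 and CR46036, in both cases with replicate 3 lowest in the list, while CR31840 (578, 663 and 633) and asRNA:CR45281 (677, 759 and 663) had closer ranks. The remaining lncRNA genes of the 20 were CR44917, CR44810 near slbo, a transcription factor gene of migrating border cells, and CR45541 near the hexokinase gene Hex-A, at pooled ranks 600, 666 and 677.

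**Figure D3:**
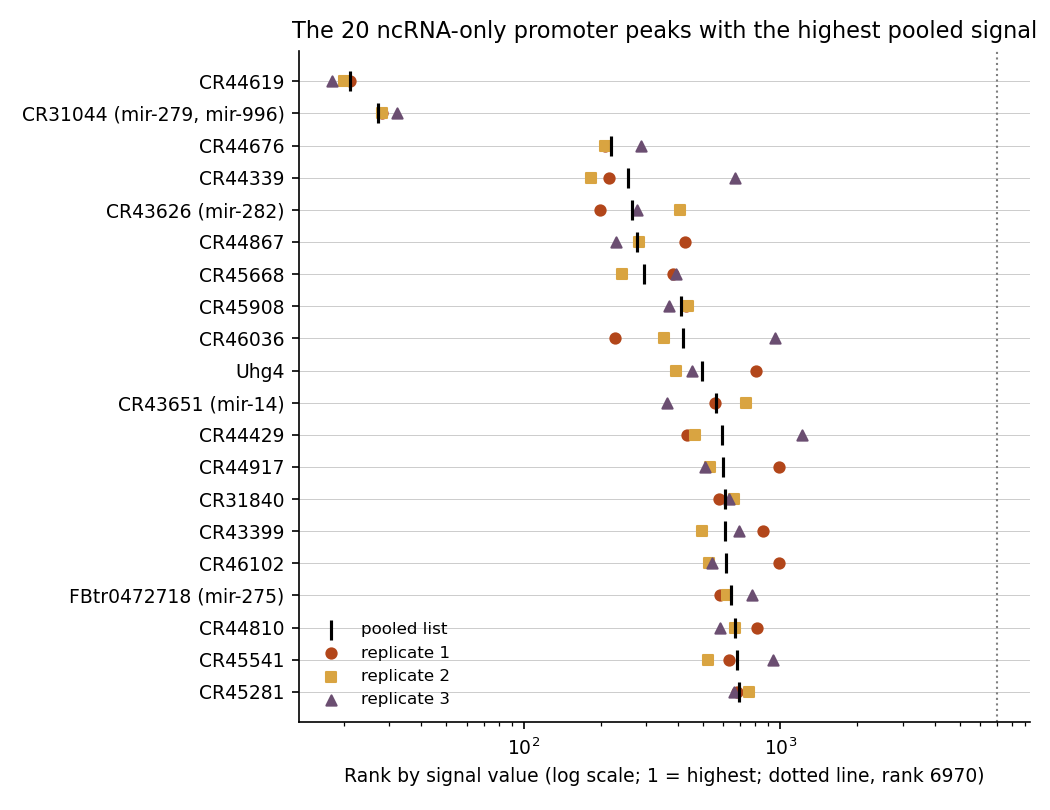
Ranks by signal value of the 20 ncRNA-only promoter peaks with the highest pooled signal (rows) in the pooled list (black ticks) and in replicates 1, 2 and 3 (symbols), on a log axis; microRNA hairpins held by the gene are in brackets. CR44619 and CR31044 stand apart at ranks 21 and 27, and every symbol lies to the left of rank 6970, the edge of the strongest peaks.

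Host genes of microRNAs recurred among the optimal peaks. Apart from the 10 peaks at mature microRNA entries, 15 of 134 optimal peaks were at lncRNA genes that hold a microRNA hairpin on their own strand. These were 10 genes, and 5 of them had 2 optimal peaks each, which at CR43651 and Hsromega were summits of the same called region. Beside CR31044 they were CR43626 with mir-282, CR43651 with mir-14, a suppressor of cell death, CR43650 with mir-8, the fly member of the miR-200 family, and CR43334 with bantam (mir-ban), which promotes growth and blocks apoptosis. The list goes on with CR43857 (mir-275), CR43314 (mir-bft, which protects bristle cells from apoptosis), CR46006 (mir-276a), CR44206 (mir-184) and Hsromega (mir-4951).

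The ranks of these host peaks varied. The main peak of CR43626 had pooled rank 264 and ranks 199, 408 and 278 in replicates 1, 2 and 3, and that of CR43651 had pooled rank 564 and ranks 558, 736 and 363. CR43650 (mir-8) had pooled rank 948, with 1079, 694 and 1330 in the replicates, and the stronger bantam host peak had pooled rank 2530, with 2185, 3957 and 1971. All of these were among the strongest of every replicate. At the low end, the CR44206 peak (mir-184) had pooled rank 6806 and was among the strongest in replicate 1 only, with ranks 3824, 9180 and 9186, and CR46006 (mir-276a) missed replicate 2 with ranks 5972, 11629 and 5211.

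Of 34 ncRNA genes that hold a hairpin and have all start sites over 500 bp from every protein-coding TSS, 10 (29.4%, interval 16.8 to 46.2%) had an optimal peak, against 103 of 2050 such genes without one (5.02%). In replicates 1, 2 and 3 the counts were 12, 9 and 11 of the 34 (35.3%, 26.5% and 32.4%), against 5.02%, 4.68% and 5.56% of the genes without a hairpin. The groups also differed in having any ncRNA-only peak in the pooled list, at 27 of the 34 (79.4%) and 465 of the 2050 (22.7%). This grouping was noticed in the values and then counted, so it is a description with no test. Hairpin genes had 1.47 start sites on average and a median length of 6465 bp, against 1.05 start sites for genes without a hairpin and a median of 718 bp over all such genes. Counted by start site the shares were 30.0% of 50 and 4.94% of 2146. Peaks at mature microRNA entries included one at rank 641 near mir-275, with ranks 582, 623 and 774 in the replicates, and the others ranked from 1376, near mir-9377 in an intron of Tis11, to 6949, near mir-967 in an intron of bun.

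Of 35 names of noncoding RNAs with known roles, 25 matched 26 genes, and 8 of these genes had an optimal ncRNA-only peak. Only 22 of the 26 have all start sites over 500 bp from every protein-coding TSS. Over all 2515 such ncRNA genes, 132 (5.25%) had an optimal ncRNA-only peak. The listed names were picked and not drawn at random, and the difference was not tested. Among the listed genes the highest rank belonged to Uhg4, a host of snoRNAs, which guide chemical modification of ribosomal RNA. Its summit lay 73 bp upstream of the start with pooled rank 494 and ranks 805, 393 and 452 in replicates 1, 2 and 3. Hsromega had a peak 223 bp upstream (pooled rank 1096, replicates 1601, 973 and 1092). Another summit of the same called region lay 21 bp upstream (pooled rank 2684, replicates 2494, 5249 and 4027). The peak 193 bp upstream of flam ranked 2586 in the pooled list and 3413, 2239 and 2891 in the replicates. All these peaks were among the strongest of every replicate.

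Among the dosage compensation RNAs, roX1 had an optimal peak 80 bp upstream of a start site and roX2 did not. The roX1 peak had pooled rank 4395 and ranks 4882, 4658 and 3927 in the replicates, all among the strongest. The best roX2 peak, 53 bp downstream, had pooled rank 10627 and was found at ranks 7660 and 17945 in replicates 1 and 2, while replicate 3 had a summit at rank 16220 that matched a second pooled roX2 peak, 255 bp downstream (pooled rank 21030). Dosage compensation acts in males and the embryos were pooled by sex, so a difference between sexes cannot be read from these lists.

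Other snoRNA hosts and structural RNAs had peaks lower in the list, some with summits that differed between replicates. The optimal Uhg1 peak, 29 bp upstream, had pooled rank 3674 and ranks 2738 and 2741 in replicates 2 and 3. In replicate 1 the Uhg1 summit, at rank 6021, matched a second pooled peak 182 bp downstream (pooled rank 9534), so Uhg1 had one of the strongest peaks in every replicate. Uhg3 (rank 5311) fell outside the strongest in replicate 1 at rank 8028, and the ncRNA-only peak of Uhg5, 343 bp downstream (rank 5747), was among the strongest in replicate 1 only, with ranks 2847, 21898 and 11423. Uhg5 also had a stronger optimal peak that was not ncRNA-only, 403 bp from a protein-coding TSS, with pooled rank 3055 and best ranks of 1602, 3440 and 4524 within 500 bp of the Uhg5 start in the replicates. The RNA of RNase MRP, which takes part in ribosomal RNA processing, had a peak 127 bp downstream of its start at pooled rank 6346, found at ranks 5598 and 5801 in replicates 1 and 3, while the best summit within 500 bp in replicate 2 ranked 9967. Uhg2 and Uhg8 had optimal peaks as well, but these lay 343 and 64 bp from a protein-coding TSS and so were not ncRNA-only.

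The remaining listed genes had lower-ranked peaks or none. Besides roX2, ncRNA-only peaks below the optimal list stood at yar (pooled rank 9728), Vinr (12481), iab4 (14849), RNaseP:RNA (15957), iab8 (16261), acal (22781) and noe (29860). No pooled summit lay within 500 bp of a start of bxd, CRG, let7C, Uhg7, cherub, sphinx or either copy of 7SL RNA, the RNA of the signal recognition particle. iab4 and iab8 are transcripts of the bithorax complex that hold Hox-regulating microRNAs, and both stayed outside the strongest peaks in every replicate.

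Counted over genes, few noncoding RNA genes had a lilli peak at a start site. Of 2515 ncRNA genes whose start sites all lie over 500 bp from every protein-coding TSS, 132 (5.25%) had an optimal ncRNA-only peak, against 31.3% of 13986 protein-coding genes with an optimal peak within 500 bp. Without the mature microRNA entries the count was 113 of 2084 (5.42%), and 492 of the 2084 (23.6%) had a peak anywhere in the pooled list. In replicates 1, 2 and 3 the share was 5.41%, 5.05% and 5.89% of ncRNA genes and 30.4%, 31.6% and 30.0% of protein-coding genes, with p = 0.25 in the exact permutation test and no overlap. The RNA made from these genes was not measured, so how many are active in embryos is unknown.

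Shares varied between the kinds of RNA, which was not tested. Optimal peaks were found at 100 of 1686 lncRNA genes (5.93%, interval 4.9 to 7.16%) and 8 of 321 asRNA genes (2.49%, interval 1.27 to 4.84%). They were found at 3 of 4 snoRNA hosts (interval 30.1 to 95.4%). Of all ncRNA-only peaks, 22.0% of those at lncRNAs (interval 18.6 to 25.8%) and 15.3% at asRNAs (interval 9.5 to 23.7%) were optimal, with overlapping intervals. By peaks, 113 of the 144 had an lncRNA as the nearest gene, 15 an asRNA, 10 a mature microRNA entry and 4 a snoRNA host. The other 2 were at RNaseMRP:RNA and snoRNA:Or-ACA9.

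**Figure D4:**
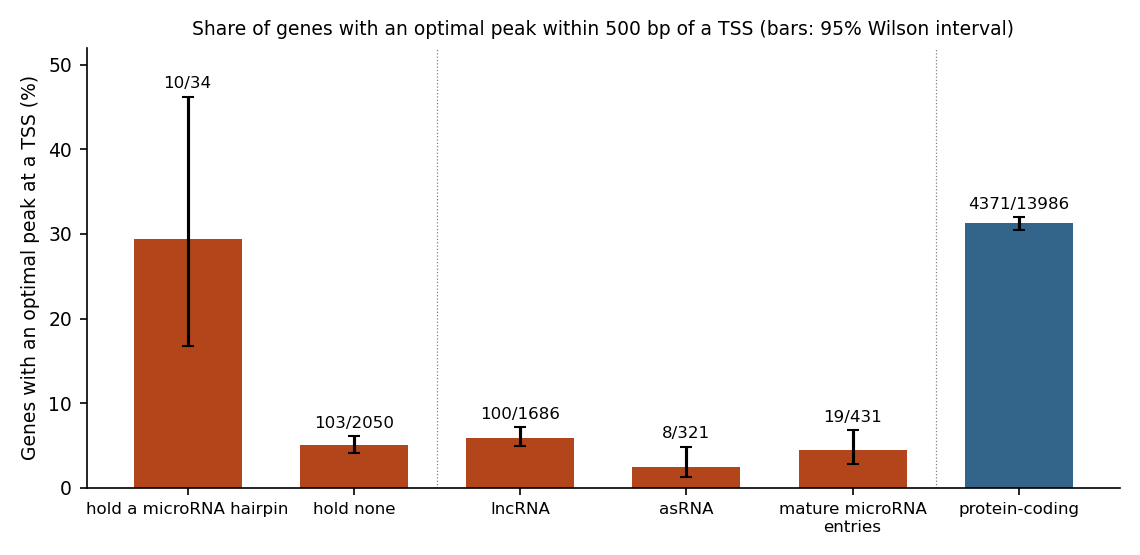
Share of genes with an optimal peak within 500 bp of a TSS, in percent with 95% Wilson intervals, for ncRNA genes clear of protein-coding start sites with and without a microRNA hairpin, for 3 kinds of ncRNA gene, and for protein-coding genes on the right. Genes with a hairpin stand at 29.4% (10 of 34), the other ncRNA bars at 2.49 to 5.93%, and protein-coding genes at 31.3%.

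The 144 optimal peaks lay at widely varying distances from protein-coding start sites, all over 500 bp by the rule. The distance to the nearest one ranged from 504 to 48766 bp with a median of 2859.5 bp, 24 peaks had one within 1000 bp, and 47 had none within 5000 bp. The nearest protein-coding gene had an optimal peak at its own promoter for 68 of the 144 (47.2%), against 48.5% of optimal peaks away from all TSSs. A total of 93 lay outside protein-coding genes (64.6%, against 59.2% of 552 lower-ranked ncRNA-only peaks) and 49 in introns (34.0%, against 31.5%). A coding exon held 1 and an untranslated exon 1, against 5.43% and 3.8% of lower-ranked peaks. Of the 51 inside a protein-coding gene, 38 (74.5%) belonged to an RNA transcribed antisense to every gene around it. That share was not counted for lower-ranked peaks or all ncRNA genes, so it cannot be read as a trait of optimal peaks.

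Optimal ncRNA-only peaks often had company. Another optimal summit lay within 2 kb of 81 of the 144 (56.2%, interval 48.1 to 64.1%), against 42.7% of optimal peaks away from TSSs and 42.1% of those at protein-coding promoters. A total of 13 genes had 2 optimal ncRNA-only peaks and none had 3 or more. These included Hsromega, the hosts CR43334, CR43626, CR43650 and CR43651, and CR44867 in beat-Ib. At Hsromega and at CR43651 both summits lay within the same called region, and the 144 summits fell in 141 distinct regions. At CR45820, CR45280, CR45355 and asRNA:CR46484 the 2 regions overlapped. Summits of the same or overlapping regions also count as company, in each of the compared sets. Beyond protein-coding promoters, 4.39% of optimal summits (144 of 3279) were ncRNA-only promoter peaks, against 3.18% of lower-ranked summits, while 1.88% of the bases there lay within 500 bp of an ncRNA TSS.

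The arms of the genome carried shares of the noncoding set near those of all optimal peaks. Arm 2R carried 32 of the 144 (22.2%, interval 16.2 to 29.7%), against 17.9% of all optimal peaks, and the X carried 24 (16.7%, interval 11.5 to 23.6%), against 18.9%. Arms 2L, 3L and 3R carried 30, 30 and 28 peaks (20.8%, 20.8% and 19.4%), against 18.9%, 19.9% and 24.0% of all optimal peaks. Chromosome 4 had 0, which allows a share of up to 2.08%, against 0.402% of all optimal peaks.

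Sequence at the summits was rich in A and T. The GC content of the central 51 bp averaged 34.65% at optimal ncRNA-only peaks, 33.07% at optimal summits away from TSSs and 37.4% at those of protein-coding promoters. At positions 1000 bp away it averaged 41.08%, 41.06% and 45.05% in the same order, so the surroundings of protein-coding promoters were also higher in GC. In the replicates GC at the summit was 33.8%, 34.0% and 35.7% at ncRNA-only promoters and 37.0%, 37.6% and 38.4% at protein-coding promoters. The difference was -3.15 ± 0.442 points (SD, n = 3, exact permutation test p = 0.25). Lower-ranked summits had a higher GC content in every set, with 40.16% at ncRNA-only promoters, 38.86% away from TSSs and 41.57% at protein-coding promoters. A/T runs like those in capitals above filled 23.2% of windows of the printed length at optimal ncRNA-only summits and 17.5% at lower-ranked ones, with 24.9% at optimal summits away from TSSs and 22.2% at protein-coding promoters.

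Promoter words were counted on both strands within 100 bp of the summit. The DNA replication-related element TATCGATA, the site of DREF at housekeeping promoters, was in 0 of 144 optimal ncRNA-only windows, which allows up to 2.08%, and in 0.548% of windows away from TSSs and 9.89% at protein-coding promoters. GGTCACACT (Ohler 1), another housekeeping promoter word, was in 1 window (0.694%), against 0.29% away from TSSs and 4.39% at protein-coding promoters. The E-box CAGCTG was in 8 windows (5.56%), against 5.76% away from TSSs and 12.9% at protein-coding promoters. For each of these 3 words the ncRNA-only share lay nearer to that away from TSSs than to that at protein-coding promoters.

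Around the start sites themselves, TATCGATA was at 0.614% of 2607 ncRNA start sites and at 6.45% of 19252 protein-coding start sites. GGTCACACT was at 0.23% and 4.42%, and CAGCTG at 7.86% and 13.4%, in the same order. TATAAA was in 50 ncRNA-only windows (34.7%), against 35.7% away from TSSs, 32.5% at protein-coding promoters and 23.4% of the ncRNA start sites. GAGAG, the core of the GAGA factor site, was in 34 (23.6%), against 22.2% away from TSSs, 20.1% at protein-coding promoters, 21.1% of the ncRNA start sites and 4812 of the 19252 protein-coding start sites. The initiator word TCAGTT was in 18 (12.5%), against 13.3% away from TSSs and 12.6% at protein-coding promoters. It was at 16.4% of the ncRNA start sites and 21.9% of the protein-coding start sites. CACACACA was in 6 (4.17%), against 3.51% away from TSSs and 2.95% at protein-coding promoters. CAGGTA, the Zelda word, was in 5 (3.47%), against 4.51% and 3.55% in those sets. TGACTCA, the AP-1 word, was in 0, which allows up to 2.08%, against 2.22% and 1.63%. At least 1 of the 9 words was in 91 of the 144 windows (63.2%). This total was not counted in the other sets and depends on the window, with 34.72% within 50 bp and 89.58% within 250 bp. It therefore does not set these peaks apart. These matches are letters in a window and not shown to be sites.

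Peaks near the limits of the rule had ordinary ranks. The optimal summits just inside the limit of distance to an ncRNA TSS were at asRNA:CR44053 (498 bp, rank 6693) and lncRNA:CR44749 (494 bp, rank 5375), and those just outside at CR45277 (505 bp, rank 5975) and CR45940 (509 bp, rank 6338). At the protein-coding limit, asRNA:CR43243 (504 bp from CG10433, rank 3849) and CR43493 (519 bp from l(1)G0196, rank 6150) were inside, and CR43270 (488 bp from Jhbp6, rank 1758) and CR45291 (487 bp from qtc, rank 830) were outside. The 3 strongest ncRNA-only peaks below the optimal list were at CR43918 (pooled rank 7055), CR44764 (7229) and CR45568 (7275). CR43918, in an intron of the E2F partner gene Dp, was found at rank 5043 in replicate 1 and 20197 in replicate 3 and not in replicate 2, while CR45568 had ranks 11523, 6953 and 6875.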

How the data were processed

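ChIP-seq peak lists of 1 group of 3 biological replicates were used, so no conditions were compared. Per the file headers (deposited text files), replicate and pooled lists were made against a control alignment, and the optimal list by the irreproducible discovery rate. Aligner and peak caller: not given in the sources used here. The signal values are the authors' deposited values per peak, on a scale of each list's own. The deposited -log10 q-values tie at their highest in 6088 of 6970 optimal peaks and were not used for ranking. Read depth cannot be had from peak lists.

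Coordinates are 1-based on dm6. Start sites are those of all transcripts in Ensembl release 115, on the same assembly, and the lengths of 6 arms were checked. Other peak sets are those within 500 bp of a protein-coding TSS and those over 500 bp from every TSS. Shares have 95% Wilson intervals, and replicate differences an exact sign-flip test. Where a count was 0, its limit is 3 counts of the total.

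The members, gene lists and words were chosen with earlier results of these data known. Named genes are those of the 20 optimal members with the highest signal, a list of known noncoding RNAs, the 2 peaks on each side of each limit, and the 3 strongest lower-ranked members; the microRNA hosts and CR44717 were chosen after their values were seen. Steps were tested on simulated data. Alternatives covered windows, start sites, gene classes, list size, summit distance and leaving out replicates. Tools were scipy 1.17.1, pandas 2.3.3, numpy 2.4.6 and matplotlib 3.10.9 under Python 3.11.15.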

Additional observations from a re-analysis of the deposited data

How the results depend on the processing

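Of 162 values recomputed under 18 alternatives, 120 were counted as unchanged, 42 moved and 0 turned round in sign. For the differences between ncRNA-only and protein-coding promoters only the sign was compared, and it held in every setting listed here. Their size could change. The GC difference went from -3.149 to -1.289 points with windows of 250 bp. The difference in share among the strongest went from -18.17 to -10.84 points with the strongest 3485 peaks. Windows of 250 bp gave 420 pooled peaks, 24.05% in the optimal list, 64.36% upstream, a median of -94 bp, 36.34% GC and 3.62% of ncRNA genes with a peak. Windows of 1000 bp gave 19.5% in the optimal list, 53.23% upstream, a median of -50 bp and 8.457% of genes. With only the 5′ end of each gene as its TSS, 54.3% lay upstream, with a median of -42 bp. The strongest 3485 peaks held 71 ncRNA-only peaks (10.2%), of which 76.06% recurred in every replicate and 61.97% lay upstream, with a median of -112 bp, 32.62% GC and 2.584% of genes; fewer peaks enter by construction. Within 50 bp instead of 100 bp, 44.44% of summits recurred, and any promoter word was in 34.72% of windows within 50 bp and 89.58% within 250 bp.

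The pooled list, made from all 3 replicates, was not remade when a replicate was left out. Leaving out a replicate keeps only pooled peaks found in both others, and optimal peaks among the strongest of both, a stricter set by construction. It left 320 to 321 pooled and 94 to about 1.0e+02 optimal ncRNA-only peaks, or 29.28 to 31.46% in the optimal list. Of the 144, 65.28 to 70.14% recurred in both others. Upstream shares were 59.57 to 63.27%, medians -97.5 to -96 bp, GC 33.19 to 33.42% and genes with a peak 3.459 to 3.777%. Leaving out mature microRNA entries, chosen after seeing the data, moved none of 12 values beyond these bounds. Differences between promoter sets were taken within replicates throughout, and with 1 group there are no sample groups to pair. Values counted as unchanged are those within 1 SD over replicates, within the 95% interval, or, for counts, within 1.5 times. Differences between promoter sets were counted as unchanged where they kept their sign, whatever their size. Depth is unknown, and no share here covers differences between embryo collections.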
